A study of Mus musculus with 14 samples.

Results

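The liver takes dietary and body amino acids apart. Here 39 genes listed for enzymes of these routes were followed across 3 dose groups of mice, out of 21976 features tested on the arrays. Etnppl, whose enzyme acts on the lipid building block phosphoethanolamine rather than on an amino acid, is counted among the 39. The genes were chosen by name, with earlier results of these data known. Each was found through the RefSeq accession that the scanner files give for its probe. All 39 were measured, by 44 probes in all, and every one of the 39 was well above background on all 14 arrays, so none entered through a filter on dim values.

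The mice were female B6C3F1, a hybrid laboratory strain, 5 to 6 weeks old on the labels. Furan, a small ring compound found in heated food, was given by oral gavage in corn oil at 1 mg/kg body weight to 5 mice and at 8 mg/kg to 5 mice for 3 weeks, and 4 control mice received corn oil alone. All 14 mice, controls included, drank bromodeoxyuridine (BrdU), a thymidine analogue that is built into new DNA, during the last 5 days, and livers were taken 4 h after the last dose. Liver RNA of each mouse was labelled with the red dye Cy5 and hybridised together with a universal mouse reference RNA labelled with the green dye Cy3, so every value is a log2 ratio of liver over reference for 1 gene in 1 mouse. A ratio is relative to that gene's own level in the reference and does not rank genes by abundance. Whole tissue was measured, so fewer cells of a type and less RNA per cell cannot be told apart.

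Amino acid breakdown runs in stages. Many routes begin with an aminotransferase or a dehydratase that removes the nitrogen, and the carbon skeleton is then opened by dioxygenases, hydrolases and dehydrogenases until it can enter glucose synthesis, fat oxidation or the citric acid cycle. Several of these enzymes, such as tyrosine aminotransferase and tryptophan dioxygenase, are made almost only in hepatocytes and are textbook targets of glucocorticoids and fasting. The sulfur branch turns methionine into the methyl donor S-adenosylmethionine and then into cysteine, which is oxidised to sulfate and taurine or used for glutathione.

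The liver label held up in these values. All 25 of 25 listed hepatocyte identity genes, such as those of albumin and the apolipoproteins, were tested, and their mean log2 ratio lay between 7.01 and 8.57 in control mice and between 7.02 and 8.41 at 8 mg/kg. The arrays lay on 5 slides, of which 4 held all 3 groups and slide 5 held 1 array at each furan dose. Slide 3 stood apart for these genes. There 38 of the 39 were higher than on slides 1, 2 and 4, with a median difference of 0.81 log2 units, against 0.05 over all features. Gpt2, an alanine aminotransferase gene, was the exception. In the liver channel alone the median difference of slide 3 was 0.07, with 22 genes higher and 17 lower. In the reference channel it was -0.50, with 35 lower and 4 higher. For all 39 genes the share of the sum of squares between slides (median 85.9%) exceeded that between dose groups (median 4.56%). The slide was entered first, and 5 slides take a larger share on average than 3 groups by their number alone. For Csad the shares were 44.8% and 38.1% and for Prodh 38.9% and 32.6%, so the ordering says little for these genes. The dose groups are compared with the slide as a block, and results that rest on slide 3 are given with and without it.

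**Figure D1:**
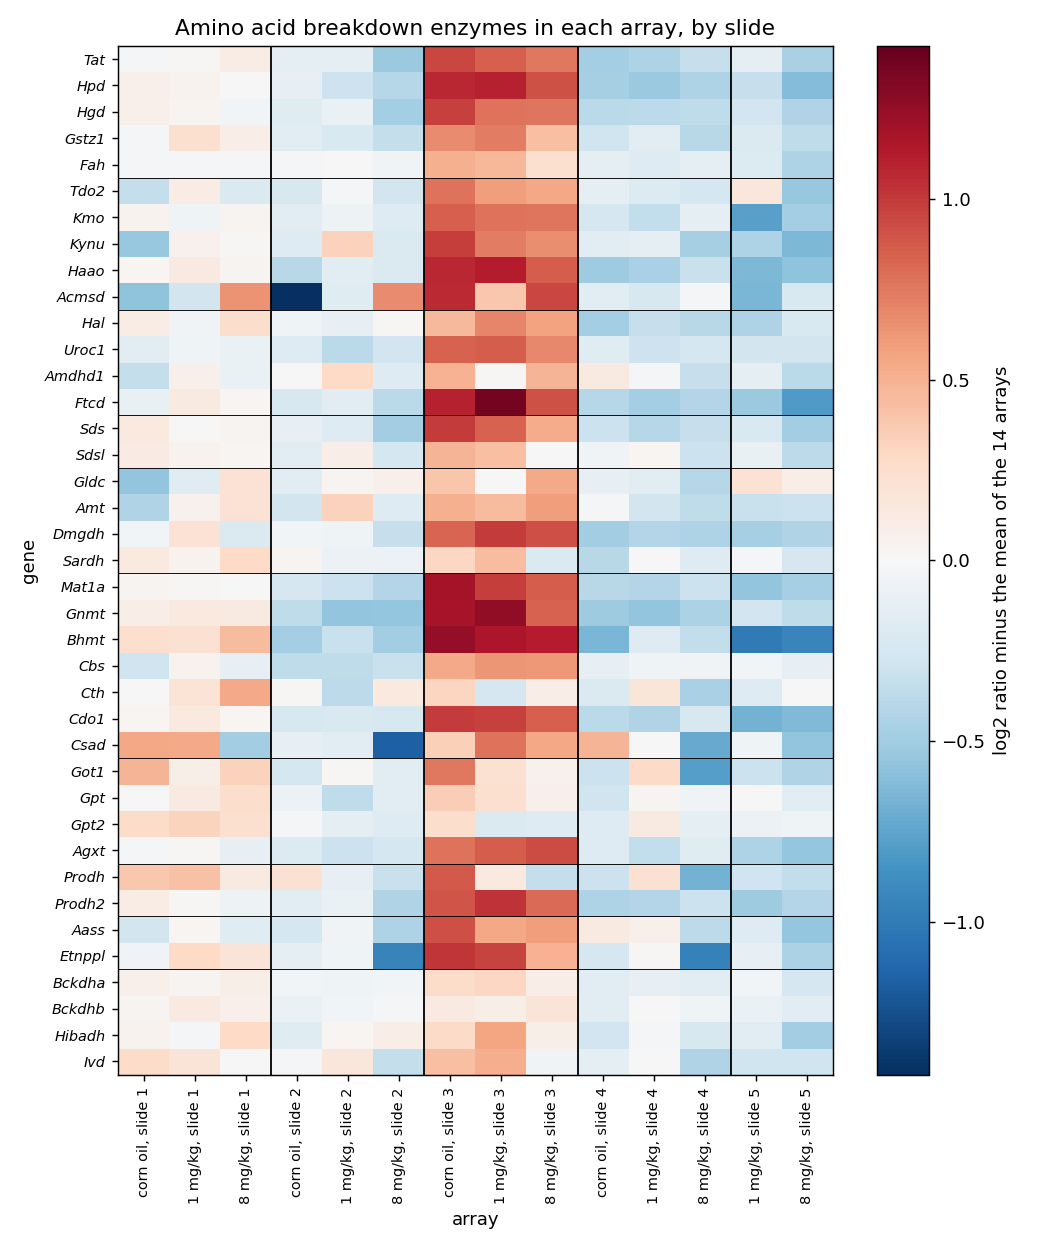
Log2 liver over reference ratio of each of the 39 genes (rows, grouped by amino acid) on each of the 14 arrays (columns, ordered by slide), minus the gene's mean over the arrays. Red is above and blue below that mean, and the 3 columns of slide 3 are red for nearly every gene, with 38 of 39 higher there.

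**Figure D2:**
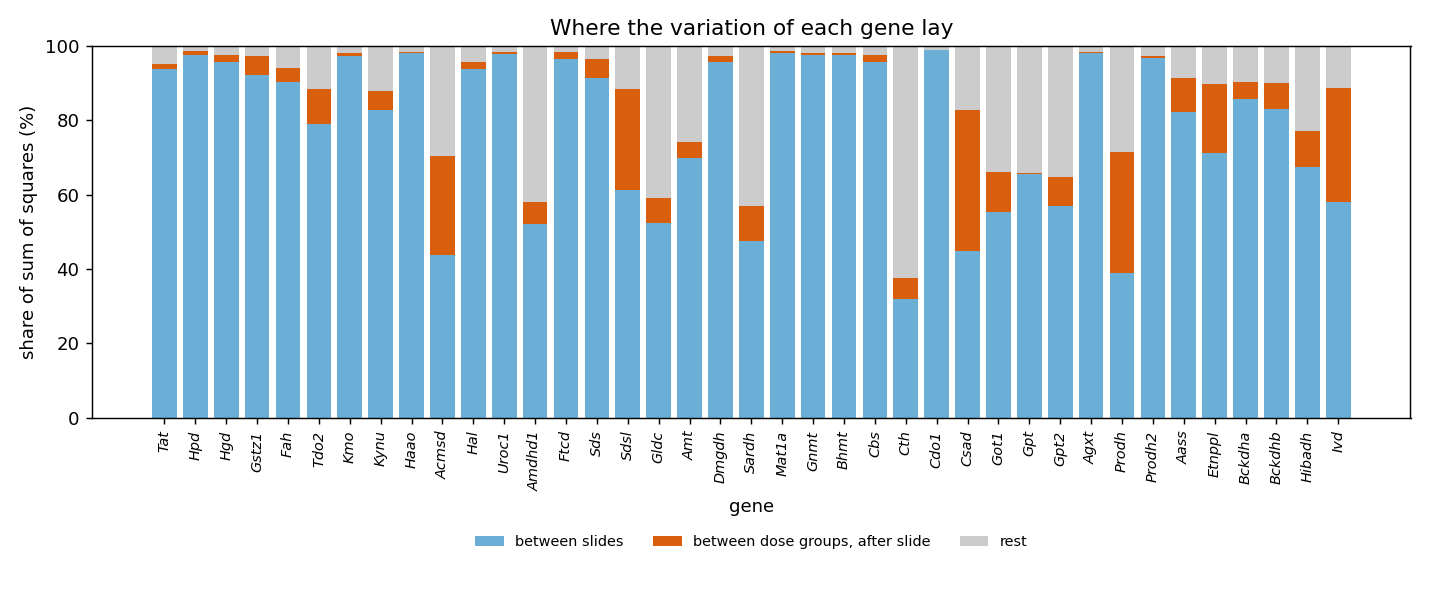
Share of each gene's sum of squares (in percent) that lay between slides, between dose groups after the slide, and in the rest. The slide share exceeds the dose share for all 39 genes, with medians of 85.9% and 4.56%, and Csad has the highest dose share, 38.1%.

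The comparison of 8 mg/kg with corn oil asked what the higher dose did to these enzymes. Csad, the gene of cysteine sulfinic acid decarboxylase, fell, and the other 38 genes did not pass the test (limma, Benjamini-Hochberg adjusted p under 0.05 over all 21976 features). That is 1 of 39, or 2.56%, where 3.96% of all features passed in either direction and 1.33% were lower, so the members' count lay near the background. At an unadjusted p under 0.05 the share was 8 of 39 (20.5%) against 20.2% of all features, the 8 being Acmsd, Sds, Sdsl, Csad, Prodh, Aass, Etnppl and Ivd. The median log2 difference of the 39 was -0.07, with 26 below 0, against 0.00 over all features, of which 49.6% were below 0. When arrays were centred on their medians in place of loess, the members' median was 0.10 and that of all features 0.14, so the members' sign turned while they still lay below the rest.

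At 1 mg/kg none of the 39 passed against control, and neither did any of the 21976 features (0% called by limma). At an unadjusted p under 0.05 the count was 0 of 39, against 6.88% of all features. The members' median was 0.03, the same as the median over all features, 0.03. The 95% intervals of 38 of the 39 lay within 1.5-fold in either direction, Acmsd being the other gene.

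Between the furan doses, Csad, Etnppl and Ivd were lower at 8 mg/kg than at 1 mg/kg. These were 3 of 39 (7.69%), all lower, where 5.2% of all features passed and 2.84% were lower. The 3 include Etnppl, whose enzyme does not act on an amino acid. At an unadjusted p under 0.05 they were 10 of 39 (25.6%) against 21.4% of all features, and the other 7 were Gstz1, Tdo2, Acmsd, Ftcd, Sdsl, Prodh and Aass. The median of the 39 was -0.10 with 32 below 0, against -0.02 over all features, of which 56.6% were below 0. The comparisons of 8 mg/kg with control and with 1 mg/kg share the same 5 treated mice, and their values are given side by side for that reason.

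**Figure D3:**
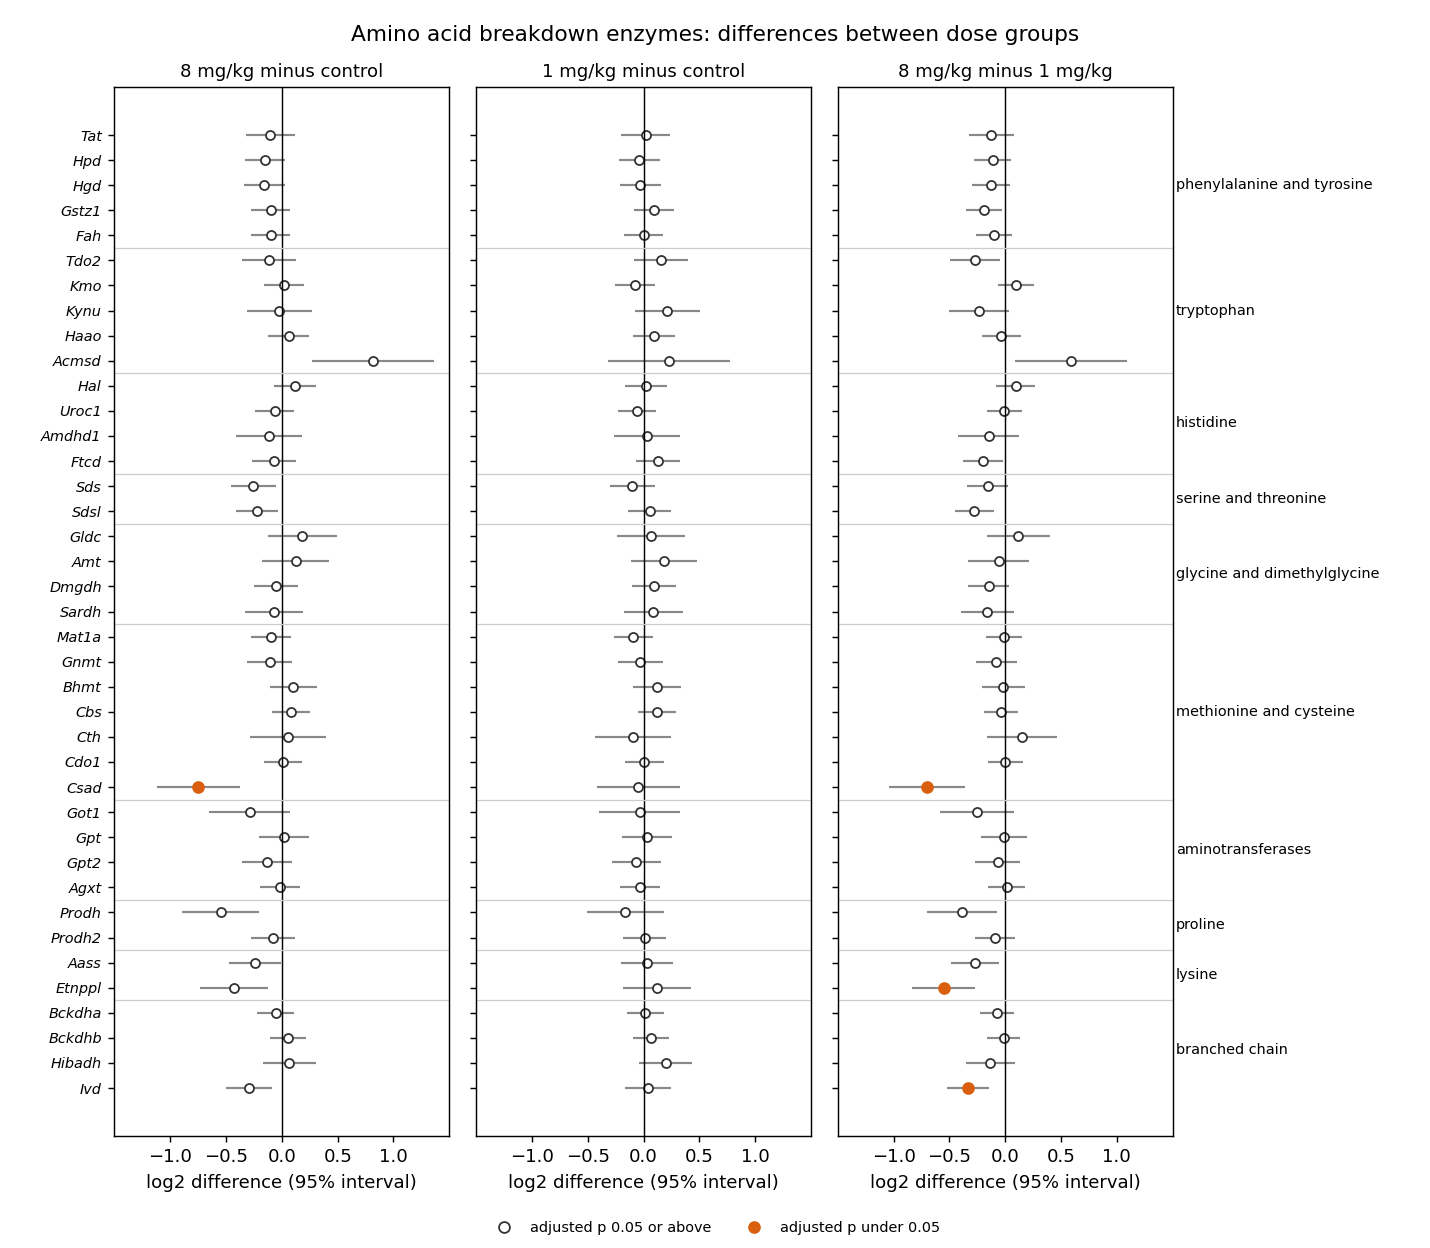
Fitted log2 difference with its 95% interval (bars) for each of the 39 genes in the 3 comparisons, grouped by amino acid. Filled points passed the test (adjusted p under 0.05): Csad at 8 mg/kg against control, and Csad, Etnppl and Ivd at 8 against 1 mg/kg. All points of 1 mg/kg against control are open.

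The upstream sequences of the 3 genes that passed are shown because they are the regulatory stretches next to the genes that differed. Each line gives the 250 bases before the outermost RefSeq start on assembly GRCm38.p6, 5′ to 3′ on the gene's own strand. Capitals mark CCAAT boxes, a common promoter element, as CCAAT or as its reverse ATTGG. The windows lie at chr15:102205053-102205302 (minus strand) for Csad, chr3:130617198-130617447 (plus strand) for Etnppl and chr2:118861744-118861993 (plus strand) for Ivd.
Csad: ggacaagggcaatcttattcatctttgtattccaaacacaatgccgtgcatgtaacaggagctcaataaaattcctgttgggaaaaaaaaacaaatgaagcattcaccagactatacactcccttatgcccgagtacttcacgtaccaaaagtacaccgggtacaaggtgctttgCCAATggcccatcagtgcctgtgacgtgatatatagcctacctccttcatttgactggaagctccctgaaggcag
Etnppl: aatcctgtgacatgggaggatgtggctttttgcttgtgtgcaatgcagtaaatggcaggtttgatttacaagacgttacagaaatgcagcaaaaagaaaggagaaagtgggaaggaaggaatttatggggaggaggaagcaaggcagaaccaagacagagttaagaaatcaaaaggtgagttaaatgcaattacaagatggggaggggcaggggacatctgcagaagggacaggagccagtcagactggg
Ivd: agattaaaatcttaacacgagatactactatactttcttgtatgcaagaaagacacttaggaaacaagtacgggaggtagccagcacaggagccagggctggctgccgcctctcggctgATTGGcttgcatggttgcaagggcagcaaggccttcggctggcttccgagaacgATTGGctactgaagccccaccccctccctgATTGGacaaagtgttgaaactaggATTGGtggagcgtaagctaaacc
Csad held 1 CCAAT box, 75 to 71 bases before the start. Ivd held 4, all on the reverse strand, the nearest 23 to 19 bases before the start, and the Etnppl window had none of these letters. CCAAT was found on either strand in 33.9% of 32851 RefSeq windows of this length and in 19 of the 36 windows (52.8%) of the 32 members that the table covers. The TATA box (TATAAA, 12.4% of all windows), the GC box (GGGCGG, 32.7%), the C/EBP-ATF element (TGATGNAAN, 3.44%) and the antioxidant response element (TGACNNNGC, 10.2%) were searched on both strands too and were not in these 3 windows. No match overlapped another. Such matches describe letters and say nothing about which factor is bound.

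In the sulfur branch, Csad stood out. Its enzyme decarboxylates cysteine sulfinic acid to hypotaurine, the step that commits cysteine to taurine. On slides 1 to 4 the control mice had log2 ratios of 2.23, 1.56, 2.01 and 2.16. The 1 mg/kg mice on slides 1 to 5 had 2.22, 1.52, 2.45, 1.68 and 1.62. Those at 8 mg/kg had 1.18, 0.51, 2.23, 0.95 and 1.11. The mice at 8 mg/kg lay below every control, except the mouse on slide 3, whose value was as high as the highest control, so the groups overlapped through that mouse. Csad fell by 0.75 ± 0.17 log2 units (± the standard error of the fit, 5 mice against 4, adjusted p = 0.0305), to 59.6% of the control level, with a 95% interval from -1.12 to -0.38. Against 1 mg/kg it fell by 0.70 ± 0.16 (n = 5 against 5, adjusted p = 0.0222).

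Within slides, Csad at 8 mg/kg minus control was -1.04, -1.05, 0.22 and -1.21 on slides 1 to 4. Against the 1 mg/kg mouse of the same slide it was lower on 5 of 5 slides, by 1.03, 1.01, 0.22, 0.73 and 0.51 on slides 1 to 5. Without slide 3 the fall from control was 1.05 (adjusted p = 0.00145). The call against control was lost when control replicate 1, 2 or 4 or 8 mg/kg replicate 1, 4 or 5 was left out, with values from -0.70 to -0.60 and adjusted p from 0.0722 to 0.107. The call against 1 mg/kg was lost without slide 5 (-0.75, adjusted p = 0.0505), and when 1 mg/kg replicate 1, 2 or 5 or 8 mg/kg replicate 1, 3, 4 or 5 was left out, with values from -0.75 to -0.62 and adjusted p from 0.0505 to 0.0823. With the slide as a random block the adjusted p was 0.055 against control and 0.0522 against 1 mg/kg, and with no slide term 0.205 and 0.215. At 1 mg/kg Csad lay -0.05 ± 0.17 from control.

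None of the other 6 genes of the sulfur branch passed in any comparison. Cdo1, whose dioxygenase makes the substrate of the Csad enzyme from cysteine, lay at 0.01 ± 0.08 against control (interval -0.16 to 0.18). Cbs, which joins homocysteine and serine to cystathionine, lay at 0.08 ± 0.08, and Cth, which splits cystathionine to cysteine, at 0.05 ± 0.16. Upstream, Mat1a, which makes S-adenosylmethionine, lay at -0.10 ± 0.08, and Gnmt, which uses it to methylate glycine, at -0.11 ± 0.09. Bhmt, the betaine-dependent enzyme that returns homocysteine to methionine, lay at 0.10 ± 0.10. In the liver channel alone Bhmt was higher at 8 mg/kg than in control by 0.53 ± 0.11 (adjusted p = 0.0111) and than at 1 mg/kg by 0.48 ± 0.10 (adjusted p = 0.0145). With the reference channel its difference from 1 mg/kg was -0.02, so the direction turned between these readouts.

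**Figure D4:**
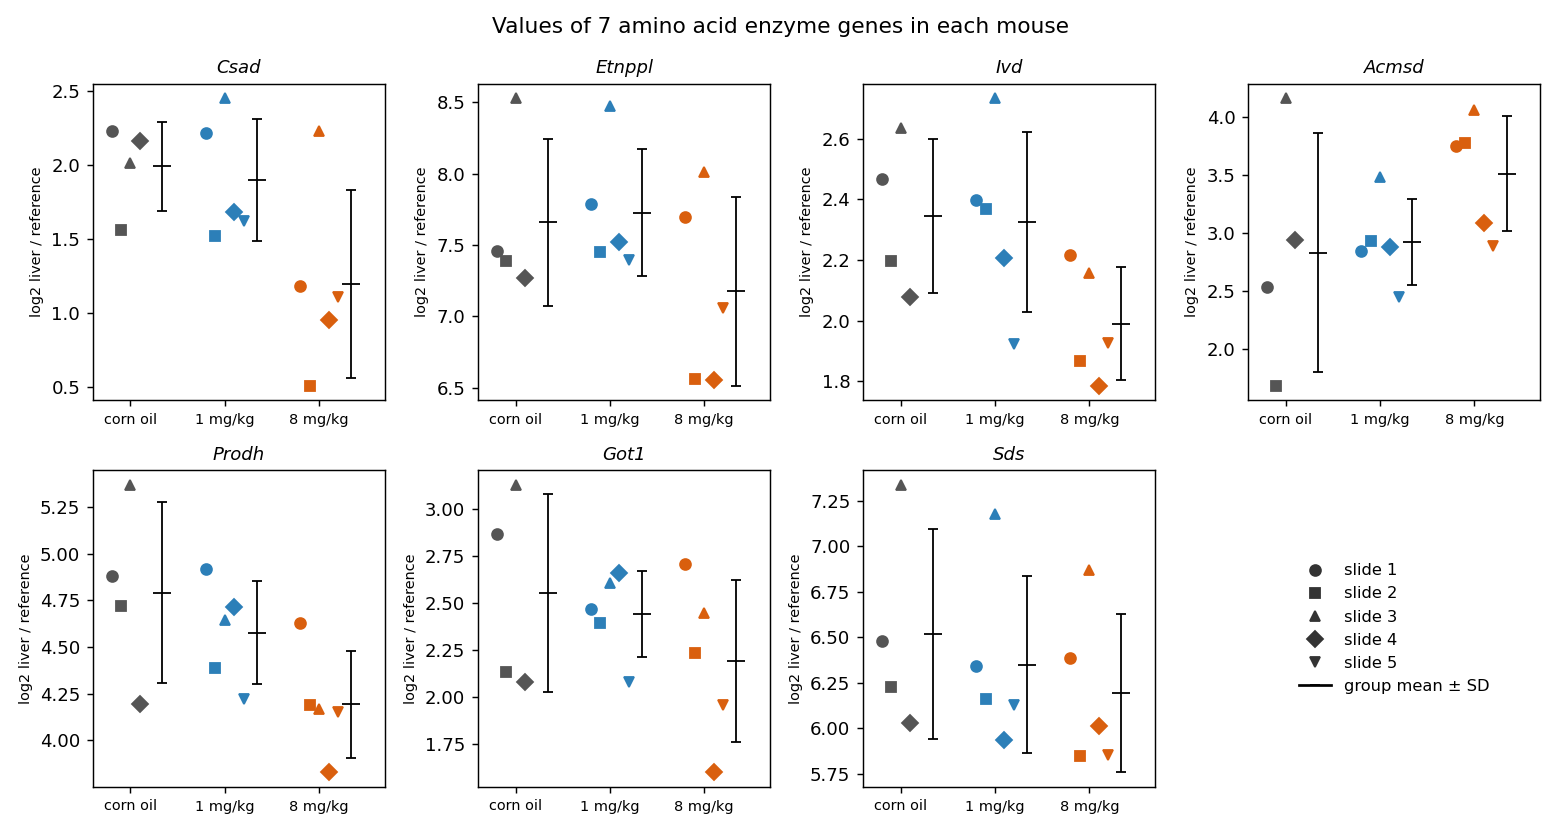
Log2 liver over reference ratio of 7 genes in each mouse, by dose group, with the symbol giving the slide and the bar the group mean and SD. Csad at 8 mg/kg lies below the controls except for the slide 3 mouse, and slide 3 (triangles) is the highest control for 6 of the 7 genes, Csad being the other.

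Lysine and its neighbour gene come next. Aass encodes the bifunctional enzyme that starts lysine breakdown. Etnppl, placed beside it, encodes a lyase of phosphoethanolamine, a membrane lipid building block rather than an amino acid. Etnppl control mice on slides 1 to 4 had log2 ratios of 7.46, 7.39, 8.53 and 7.27. Mice on 1 mg/kg, slides 1 to 5, had 7.79, 7.45, 8.47, 7.52 and 7.39. Mice on 8 mg/kg had 7.70, 6.56, 8.01, 6.55 and 7.06, so 3 of the 5 mice lay below every other mouse and the groups overlapped.

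Etnppl fell by 0.55 ± 0.13 from 1 to 8 mg/kg (n = 5 against 5, adjusted p = 0.0276), to 68.3% of the lower dose, and the 8 mg/kg mouse was lower on 5 of 5 slides. Against control its difference was -0.43 ± 0.14 (n = 5 against 4, adjusted p = 0.111), lower on 3 of 4 slides. The call between doses was lost without slide 3 (-0.57, adjusted p = 0.0631), without slide 5 (-0.60, adjusted p = 0.0534) and in the liver channel alone (-0.34, adjusted p = 0.22). It was also lost when 1 mg/kg replicate 1, 2 or 3 or 8 mg/kg replicate 1, 2, 3 or 5 was left out, with values from -0.60 to -0.46 and adjusted p from 0.0534 to 0.0983. Aass lay at -0.24 ± 0.11 against control (adjusted p = 0.227) and did not pass.

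Of the 4 branched chain genes only Ivd passed, and only between the furan doses. Its product, isovaleryl-CoA dehydrogenase, acts on the leucine skeleton in mitochondria. The control values on slides 1 to 4 were 2.47, 2.20, 2.63 and 2.08. The lower dose gave 2.40, 2.37, 2.73, 2.21 and 1.92 on slides 1 to 5, and the higher dose 2.22, 1.87, 2.16, 1.79 and 1.92. The 8 mg/kg mice were lower than the 1 mg/kg mice of the same slide on slides 1 to 4 and level on slide 5, and the groups overlapped.

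Ivd fell by 0.34 ± 0.09 from 1 to 8 mg/kg (n = 5 against 5, adjusted p = 0.0411), to 79.2% of the lower dose. Against control it lay at -0.30 ± 0.10 (adjusted p = 0.10), lower on 4 of 4 slides. The call between doses was lost without slide 3 (-0.28, adjusted p = 0.135) and in the liver channel alone (-0.23, adjusted p = 0.184). It was also lost without control replicate 2 or 4, 1 mg/kg replicate 1, 3, 4 or 5, or 8 mg/kg replicate 1, 2 or 5, with values from -0.37 to -0.28 and adjusted p from 0.0506 to 0.130. Bckdha and Bckdhb, the subunits of the dehydrogenase that commits all 3 branched chain amino acids, lay at -0.05 ± 0.08 and 0.06 ± 0.07 against control. Hibadh, a valine enzyme, lay at 0.07 ± 0.11.

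In the tryptophan route none of 5 genes passed. Acmsd, whose decarboxylase steers the pathway away from NAD synthesis, had the highest difference of the 39 at 8 mg/kg. Its control values on slides 1 to 4 were 2.54, 1.69, 4.17 and 2.94. On slides 1 to 5 the 1 mg/kg mice had 2.85, 2.94, 3.49, 2.89 and 2.45. Under 8 mg/kg the values were 3.75, 3.78, 4.06, 3.09 and 2.89. The controls spread over more than the other groups, from 1.69 to 4.17, and the ranges overlapped.

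Acmsd lay 0.82 ± 0.25 above control at 8 mg/kg (interval 0.27 to 1.36, adjusted p = 0.0894). Within slides 1 to 4 the difference was 1.21, 2.09, -0.10 and 0.15. Without slide 3 it was 1.13 and passed (adjusted p = 0.0443), as it did without control replicate 3 (1.12, adjusted p = 0.0324). Without control replicate 1 it was 0.44 (adjusted p = 0.271), and without 8 mg/kg replicate 1 it was 0.60 (adjusted p = 0.256). With the scanner's own processed signals it was -0.12, so its direction against control depended on that choice, the only 1 of 30 alternatives to change its sign. Against 1 mg/kg Acmsd lay 0.59 ± 0.23 higher (adjusted p = 0.157), on 5 of 5 slides. That difference stayed above 0 under all 30 alternatives (0.37 to 0.73) and passed under 2 of them. Tdo2, the dioxygenase that opens the route in hepatocytes, lay at -0.11 ± 0.11 against control, Kynu at -0.02 ± 0.14, Haao at 0.06 ± 0.09 and Kmo at 0.02 ± 0.08. In the liver channel alone Kmo, the monooxygenase of kynurenine, was higher by 0.33 ± 0.08 (adjusted p = 0.0365).

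The 5 genes of phenylalanine and tyrosine breakdown all lay slightly below control at 8 mg/kg and none passed (0 also at an unadjusted p under 0.05). They are written here in pathway order. Tat, the aminotransferase that starts the route, lay at -0.10 ± 0.10. Hpd, which makes homogentisate, lay at -0.15 ± 0.08, and Hgd, which opens its ring, at -0.16 ± 0.09. Gstz1, the isomerase that follows, and Fah, the last enzyme, both lay at -0.10 ± 0.08. The lowest bound of these 5 intervals was -0.34 (Hgd), so a fall of 1.5-fold in any of them lay outside its interval. At 1 mg/kg the 5 lay between -0.04 and 0.09.

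Proline and serine breakdown follow, with no gene past the threshold. Prodh, the mitochondrial dehydrogenase that starts proline breakdown, had control values of 4.88, 4.72, 5.37 and 4.20 on slides 1 to 4. The values on slides 1 to 5 were 4.92, 4.39, 4.64, 4.72 and 4.22 at 1 mg/kg, and at 8 mg/kg 4.63, 4.19, 4.17, 3.83 and 4.15. The 8 mg/kg mouse was lower than the control on 4 of 4 slides and than the 1 mg/kg mouse on 5 of 5, with overlapping ranges.

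Prodh differed from control by -0.55 ± 0.16 (adjusted p = 0.0731) and by -0.33 without slide 3 (adjusted p = 0.264). It passed when 1 mg/kg replicate 3 was left out (-0.57, adjusted p = 0.0332). Prodh2, which acts on hydroxyproline, lay at -0.08 ± 0.09.

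Sds, the serine and threonine dehydratase that feeds glucose synthesis, had control values of 6.48, 6.23, 7.34 and 6.03. On slides 1 to 5 the values were 6.34, 6.16, 7.18, 5.93 and 6.13 at 1 mg/kg, and at 8 mg/kg 6.39, 5.85, 6.87, 6.01 and 5.85. Slide 3 gave the highest value of each group, and the groups overlapped. Sds differed from control by -0.25 ± 0.09 (adjusted p = 0.140), lower on 4 of 4 slides. Its relative Sdsl lay at -0.22 ± 0.09 (adjusted p = 0.181), also lower on 4 of 4 slides, and at -0.28 ± 0.08 against 1 mg/kg (adjusted p = 0.0669).

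Among the 4 aminotransferases none passed. Got1, the cytosolic aspartate aminotransferase, had control values of 2.86, 2.13, 3.13 and 2.08 on slides 1 to 4. Slides 1 to 5 gave 2.47, 2.39, 2.60, 2.66 and 2.08 at 1 mg/kg, and at 8 mg/kg 2.71, 2.24, 2.45, 1.60 and 1.96. The difference from control was -0.29 ± 0.17 (adjusted p = 0.366), with ranges that overlapped widely. Gpt and Gpt2, the alanine aminotransferases, lay at 0.02 ± 0.10 and -0.13 ± 0.10. Agxt, which clears glyoxylate in peroxisomes, lay at -0.02 ± 0.08.

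Histidine breakdown showed no gene past the threshold among 4. Hal, the ammonia lyase that starts it, lay at 0.12 ± 0.09, higher on 4 of 4 slides, and Uroc1, which acts on urocanate, at -0.07 ± 0.08. Amdhd1, the next hydrolase, lay at -0.12 ± 0.14, and Ftcd, which hands the final carbon to folate, at -0.07 ± 0.09.

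The 4 genes of glycine and dimethylglycine did not pass either. Gldc and Amt, parts of the mitochondrial glycine cleavage system, lay at 0.18 ± 0.14 and 0.12 ± 0.14. Dmgdh and Sardh, which strip methyl groups from choline-derived glycines, lay at -0.05 ± 0.09 and -0.07 ± 0.12.

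For most of the 39 the intervals were narrow in the fit with the slide as a fixed block, and their widths depend on that choice. At 8 mg/kg against control 34 of 39 had a 95% interval within 1.5-fold in either direction, and the others were Acmsd, Csad, Got1, Prodh and Etnppl. Between the doses 35 of 39 did, the others being Acmsd, Csad, Prodh and Etnppl. The standard errors against control ran from 0.07 to 0.25 with a median of 0.09. For Bhmt the standard error of 0.10 became 0.32 with the slide as a random block and 0.46 with no slide term. The Bhmt difference in the liver channel alone, 0.53, lay outside its interval of -0.11 to 0.32.

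The wider set of amino acid breakdown enzymes gave further falls at 8 mg/kg. This list and those of transporters, regulators and fasting genes below were chosen with earlier results of these data known. Their shares beside those of all features are therefore descriptive and are no independent test. Of 64 other such genes tested, 0 rose and 5 fell against control (7.81%, where 1.33% of all features were lower), with a median of -0.07. Ido2, another dioxygenase that can open the tryptophan ring, fell by 0.61 ± 0.10 (adjusted p = 0.00547). Auh and Mccc2, which act in leucine breakdown downstream of Ivd, fell by 0.44 ± 0.09 and 0.38 ± 0.10 (adjusted p = 0.0156 and 0.0491). Pccb, a subunit of propionyl-CoA carboxylase, fell by 0.42 ± 0.10 (adjusted p = 0.0364). Agxt2, a mitochondrial aminotransferase, fell by 0.41 ± 0.10 (adjusted p = 0.0384). Against 1 mg/kg 0 rose and 8 fell (12.5%, where 2.84% of all features were lower), with a median of -0.12, and the 6 of smallest p were Ido2, Agxt2, Mccc2, Auh, Ddo and Pccb, which fell by 0.44 (Pccb) to 0.66 (Ddo). Gls2, the liver glutaminase, lay at -0.03 ± 0.12 against control. How the calls of this list and of the lists below depend on the processing was not tested.

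Among 18 amino acid transporters tested 0 rose and 2 fell against control (11.1%, where 1.33% of all features were lower), with a median of -0.08. They were Slc6a12, a carrier of betaine and GABA, which fell by 0.44 ± 0.08, and Slc1a2, a glutamate carrier, which fell by 0.38 ± 0.09. Against 1 mg/kg 5 fell (27.8%, where 2.84% of all features were lower) and 0 rose (Slc1a2, Slc25a13, Slc6a12, Slc43a1 and Slc7a2). Of these, Slc43a1, a carrier of large neutral amino acids, fell by 0.53 ± 0.12 and Slc25a13, the mitochondrial aspartate and glutamate exchanger, by 0.33 ± 0.07.

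Of 21 regulators of these enzymes 0 passed against control, with a median of -0.02, and 0 against 1 mg/kg. At an unadjusted p under 0.05 there were 3 against control (14.3%, where 20.2% of all features were). Against 1 mg/kg there were 5 (23.8%, where 21.4% of all features were). Nr3c1, the glucocorticoid receptor, lay at 0.03 ± 0.09 and Klf15, a fasting-induced activator of amino acid breakdown, at -0.10 ± 0.15. Of 13 genes that respond to glucocorticoids and fasting 3 rose and 0 fell (23.1%, where 2.63% of all features were higher), with a median of 0.23. Igfbp1, a binding protein of insulin-like growth factors, rose by 1.10 ± 0.21 (adjusted p = 0.0125). Pdk4, a kinase that slows pyruvate oxidation, rose by 0.84 ± 0.20 (adjusted p = 0.0311) and the kinase gene Sgk1 by 0.53 ± 0.14 (adjusted p = 0.0481). Against 1 mg/kg Igfbp1 rose by 0.84 ± 0.20 and the other 12 did not pass (1 of 13, or 7.69%, where 2.35% of all features were higher). No gene of these lists passed at 1 mg/kg against control. At an unadjusted p under 0.05 were 5 breakdown enzymes (7.81%), 0 transporters, 1 regulator (4.76%) and 0 fasting genes, against 6.88% of all features.

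Markers of other cells were compared beside these results. Of 25 hepatocyte identity genes 0 passed against control. At an unadjusted p under 0.05 there was 1 (4%), against 20.2% of all features. C3, the complement gene, fell by 0.41 ± 0.10 against 1 mg/kg. At 1 mg/kg 24 of the 25 lay above control, with a median of 0.16, none passing and 7 (28%) at an unadjusted p under 0.05, against 6.88% of all features. From 1 to 8 mg/kg 24 of the 25 lay below 0, with a median of -0.13 and 5 (20%) at an unadjusted p under 0.05, against 21.4% of all features. None of the tested markers of Kupffer cells (11 of 12 listed), sinusoidal endothelium (10 of 10), cholangiocytes (7 of 9), T and NK cells (6 of 10), B and plasma cells (5 of 6), neutrophils (4 of 8), adipose and gallbladder tissue (3 of 7) and erythroid cells (5 of 8) passed in any comparison. At an unadjusted p under 0.05 the most among these were 5 of the 10 endothelial genes (50%), lower at 8 than at 1 mg/kg. Of all features 21.4% were under it in that comparison. The mean log2 ratio of that list was 2.71 to 3.17 in control mice, 2.63 to 3.25 at 1 mg/kg and 2.46 to 3.21 at 8 mg/kg. The highest adipose and gallbladder gene lay 2.20 above control at 1 mg/kg, the highest difference of all features there, without passing. At 8 mg/kg the highest of that list lay 1.27 above control. Its mean log2 ratio was -0.20 to 0.03 in control mice, -0.06 to 1.89 at 1 mg/kg and -0.10 to 1.40 at 8 mg/kg. Lrat, a stellate cell gene, fell by 0.64 ± 0.15 against 1 mg/kg and was the only 1 of 12 stellate markers to pass. Of 5 pancreas genes tested of 9 listed, Amy2a5, an amylase gene, fell by 0.73 ± 0.11 against control and by 0.81 ± 0.10 against 1 mg/kg. All 5 lay below 0 in both comparisons. At an unadjusted p under 0.05 were 1 (20%) against control and 3 (60%) against 1 mg/kg. The mean log2 ratio of the pancreas list was 1.40 to 1.68 in control mice, 1.49 to 1.63 at 1 mg/kg and 1.19 to 1.44 at 8 mg/kg, and 3 of its genes were above background on no array. The part of these markers and of the hepatocyte genes in the falls of Csad, Etnppl and Ivd was not tested.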

How the data were processed

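Gene expression was measured on Agilent 2-colour arrays, 1 per mouse, with the liver in Cy5 and the universal reference in Cy3 on every array. The deposited scanner files hold spot intensity values read with Feature Extraction 10.7.3.1, per the file headers. A further deposited table held linear ratios of sample over reference. Its column medians were 0.976 to 0.990, and its log2 values correlated at 0.992 to 0.995 with those computed from the scanner files. Its normalization is unstated in the labels, and it served as an alternative.

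Median intensities were corrected with limma 3.58.1 (normexp, offset 50, R 4.3.3) and normalized within arrays by loess, with control spots and flagged spots (178 to 336 per array) given no weight. Repeat spots were averaged to 55681 probes. Accessions matched the RefSeq names of GRCm38.p6 for 26413 probes, and 29268 stayed unnamed. A probe was kept if well above background in Cy5 on at least 4 of 14 arrays (28867 probes), and the brightest probe stood for a gene. Per array 23061 to 29844 probes were well above background, and 14 arrays set the limit of precision. No spot was saturated.

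The 3 groups were compared with lmFit and eBayes on all 14 arrays with slide as a fixed block, and p-values were adjusted by Benjamini-Hochberg over 21976 features at 0.05. The series design text calls the mice biological replicates. The code was tested on simulated data. Members and lists were chosen with earlier results of these data known. Of the members, those that passed in any comparison and the 4 with the largest other differences at 8 mg/kg against control are given in every mouse. From the context lists, passing genes (at most 6 per list, by p) and Klf15, Nr3c1 and Gls2 are named, and a further gene of that rule is not reported here. Alternatives covered background correction, normalization, channel, probe filter, probe choice, slide term and arrays left out. Sequences are from RefSeq (GRCm38.p6), and the probe coordinates in the files, on an older build, were not used. Plots used matplotlib 3.10.9 (Python 3.11.15).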

Additional observations from a re-analysis of the deposited data

Results flagged for a closer look

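In 8 of 117 sets of values (39 genes in 3 groups) the highest mouse lay far from the rest of its group by Dixon's 95% limit. Chance flags about 1 in 20 groups, or 5.85 of 117, and all 8 values came from the 3 mice on slide 3. For Uroc1 the mouse was control replicate 3 (log2 ratio 6.78), 1 mg/kg replicate 4 (6.80) and 8 mg/kg replicate 2 (6.63), that is, the slide 3 mouse of each group. The 8 mg/kg replicate 2 was also high for Dmgdh (8.51) and Cbs (4.52). The 1 mg/kg replicate 4 was high for Sardh (4.88) and Hibadh (4.09). Control replicate 3 was high for Etnppl (8.53).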

How the results depend on the processing

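With 1 gene called at 8 mg/kg against control and 3 at 8 against 1 mg/kg, the counts were 0 and 0 with normexp offset 10, with the scanner's processed signals, with no slide term, with the slide as a random block (correlation 0.294) and with the replicate block in place of the slide. With only the groups compared they were 0 and 3 (Acmsd higher, Csad and Etnppl lower). Without slide 3 they were 2 (Acmsd higher, Csad lower) and 1 (Csad lower). Without slide 5 they were 1 (Csad lower) and 1 (Ivd lower). Median centring gave 1 (Acmsd higher) and 1 (Csad lower). The liver channel alone gave 4 (Kmo, Acmsd and Bhmt higher, Csad lower) and 3 (Kmo and Bhmt higher, Csad lower). The authors' ratios gave 1 (Csad lower) and 2 (Csad and Etnppl lower). Leaving out 1 array gave 0 to 2 and 0 to 4, and the genes called changed with the array. Without 8 mg/kg replicate 4 they were Etnppl against control, and Sdsl, Etnppl and Ivd between the doses, all lower. Without control replicate 1 none passed against control, and between the doses Acmsd was higher and Csad, Etnppl and Ivd were lower. At 1 mg/kg against control 0 members passed under all 30 alternatives. No background correction, other probe filters, the mean over probes and Aquantile, which leaves log ratios as they are, gave 1 and 3. Bhmt at 8 against 1 mg/kg turned from -0.02 to 0.48 in the liver channel alone. The 30 alternatives make 27 fits that differ from each other and from the reported one, since Aquantile repeats it and leaving out either array of slide 5 equals leaving out the slide. Of these 27, Csad kept its call against control under 14 (adjusted p up to 0.227) with no change of sign. Between the doses Csad kept it under 16, Etnppl under 13 and Ivd under 8.

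Over all features the counts 870 and 1142 became 467 and 707 (offset 10), 290 and 263 (processed signals), 276 and 297 (no slide term), 121 and 149 (replicate block), and 534 and 528 (without slide 5). At 8 mg/kg against control they became 304 (only these groups) and 393 (without slide 3), and 1368 in the liver channel alone. Median centring gave 1352 and 410. With 1 array left out they were 311 to 843 and 419 to 1240. Of the calls 66.3% and 45.3% were higher, against 96.4% and 68.3% with median centring, which moved the median of all features by 0.14, against 82.1% and 82.9% with processed signals, and against 54.5% in the liver channel alone at 8 mg/kg against control. The 13 same-number correlations between samples ran from -0.43 to 0.24, where the 13 same-slide ones ran from 0.09 to 0.66. Some same-number samples share a slide, so these values cannot settle whether the replicate numbers pair the mice. The cause of the changes in the counts was not tested.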

Other observations

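Where a gene had more than 1 probe, the probes were set side by side for 8 mg/kg against control. The 3 probes of Bhmt lay at 0.10 ± 0.10, 0.08 ± 0.10 and 0.04 ± 0.08. Kmo lay at 0.02 ± 0.08 on the brighter probe and at 0.26 ± 0.12 on the other (unadjusted p = 0.0423). Kynu lay at -0.02 ± 0.14 and 0.09 ± 0.11. Cth lay at 0.05 ± 0.16 and -0.08 ± 0.14, with opposite signs and each within its error of 0. At 1 mg/kg against control the dimmer Kynu probe lay at 0.32 ± 0.11 (unadjusted p = 0.0116), the brighter at 0.21 ± 0.14.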
